A study of Mus musculus with 384 samples.

Results

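The windows described here were the far intergenic members of a list of accessible chromatin regions from 1 mouse breast tumor. A window of 500 bp was counted as far intergenic if its centre lay in no annotated transcript and more than 50 kb from the nearest annotated transcription start site (GENCODE vM1, mouse build mm9), and 6203 of the 50000 windows met this rule. The list came from Pi-ATAC (MI-ATAC in the labels), in which fixed cells are stained for protein, tagged by transposase in bulk and sorted into wells as single cells before sequencing. The tumor was of the PyMT mouse model of breast cancer, in which the mammary tumor virus promoter drives a viral oncogene (MMTV-PyMT), and its fixed cells were stained for EpCAM, a protein of epithelial cells, and CD45, a protein of leukocytes. All wells, in 4 plates of 96, formed a single group in the labels, with no other genotype, treatment or stain result given, and summits were called once on the aggregated cells, so there were no replicates, and the windows of EpCAM+ and CD45+ cells stand mixed in the list. Mice of this model were killed at 3 months of age, and the strain was not given in the sources used here. The list held positions and names without scores or read counts, so the depth behind a window was unknown, and the intervals given are 95% intervals of counting error only. Windows lay near genes of both stained cell types, with 9 around Epcam (50 kb to either side of its start sites) and 4 around Ptprc, which encodes CD45. For both genes, 0 windows lay within 1 kb of a start site. The liver gene Alb had 0 within 50 kb, but another liver gene, Apob, was nearest to 3 far windows, so these counts do not tell tissues apart.

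Accessible chromatin far from genes is known mainly as a site of enhancers, short stretches where transcription factors displace nucleosomes and act on a promoter at a distance, and as a site of insulators bound by CTCF, which anchors chromatin loops. AP-1, a dimer of Fos and Jun proteins, is a factor often found at enhancers of epithelial and activated immune cells, RUNX factors act in both lineages, and PU.1 acts in myeloid and B cells. A match to a factor's consensus letters describes the sequence and is no measure of binding.

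To show what these windows look like, 5 stretches of the reference sequence (NCBIM37, the same assembly as mm9, plus strand) are given, with 1 kind of word in capitals in each, as named, and any other word searched for left in lower case. The first holds the centre of the window farthest from any start site, with its RUNX word (AACCACA, the reverse complement of TGTGGTT). The second is taken from the window with most AP-1 words (TGAGTCA, or TGACTCA on the other strand), and the third from the window whose CTCF word lies nearest to the centre. The last pair, chosen after the values had been seen, are the windows near Tomm20 and near Tbl1xr1 whose AP-1 word lies nearest to the centre, since these genes had the most far intergenic windows in a single group, over all chromosomes for Tomm20, and the second largest group on the chromosomes other than 7, 8, 9 and X for Tbl1xr1.
chr14:81759935-81760205, RUNX in capitals: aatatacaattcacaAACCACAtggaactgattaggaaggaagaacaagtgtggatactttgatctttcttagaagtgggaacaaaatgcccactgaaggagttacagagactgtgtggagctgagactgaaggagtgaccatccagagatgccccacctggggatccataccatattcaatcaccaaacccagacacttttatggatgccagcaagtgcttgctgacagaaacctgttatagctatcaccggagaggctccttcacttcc
chr6:137792031-137792152, AP-1 in capitals: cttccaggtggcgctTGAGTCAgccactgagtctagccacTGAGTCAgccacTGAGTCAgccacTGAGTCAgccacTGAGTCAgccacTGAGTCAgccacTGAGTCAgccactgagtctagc
chr13:107911748-107911947, CTCF in capitals: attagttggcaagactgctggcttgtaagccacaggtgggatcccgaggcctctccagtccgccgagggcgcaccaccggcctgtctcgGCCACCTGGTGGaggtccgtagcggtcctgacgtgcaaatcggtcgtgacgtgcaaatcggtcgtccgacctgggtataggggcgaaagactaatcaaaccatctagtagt
chr8:129396523-129396722, AP-1 in capitals: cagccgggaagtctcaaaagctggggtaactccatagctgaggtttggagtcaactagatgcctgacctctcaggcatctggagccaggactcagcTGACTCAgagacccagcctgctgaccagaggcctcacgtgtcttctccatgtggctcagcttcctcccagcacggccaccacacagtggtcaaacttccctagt
chr3:21848467-21848666, AP-1 in capitals: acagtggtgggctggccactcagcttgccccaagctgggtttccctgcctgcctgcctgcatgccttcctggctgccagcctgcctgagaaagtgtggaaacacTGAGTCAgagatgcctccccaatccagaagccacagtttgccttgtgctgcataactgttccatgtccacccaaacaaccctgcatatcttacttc

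The window on chromosome 14 lay 1024 kb from the nearest start site, that of a U1 RNA gene, and 1360.0 kb downstream of the start of Olfm4, the nearest protein-coding gene. Its GC content was 45.2% with 2 CpG. The window on chromosome 6, 89.2 kb downstream of the start of Dera, held 7 AP-1 words, which after the first were spaced 12 bases apart in a tandem repeat, the last at -121.5 bp from the window's centre. The window on chromosome 13 lay 89.8 kb downstream of the start of 3830408C21Rik and held 26 CpG at a GC content of 51.8%. Its CTCF word was at -5 bp from the window's centre. The window near Tomm20 held 1 AP-1 word and lay 73.1 kb downstream of that gene's start. The window near Tbl1xr1 also held 1 and lay 127007 bp upstream of its gene. The central 36 bases of all 5 windows occurred once in the genome.

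Far intergenic windows were sparse for the sequence they came from. They made up 12.4% of the list (12.1 to 12.7%), while far intergenic sequence made up 28.1% of the sequenced bases of the 20 chromosomes, a ratio of 0.441. Their density was 8.63 windows per Mb (8.42 to 8.85), against 14.4 per Mb in intergenic sequence 10 to 50 kb from a start site, 17.4 at 1 to 10 kb, 18.6 in introns and 125.4 within 1 kb of a start site. On chromosomes 7, 8, 9 and X, however, the list was fuller than elsewhere, so the main values are also given without them. There the far intergenic density was 15.2, 20.1, 20.3 and 11.2 windows per Mb, and on the other 16 chromosomes it ran between 4.65 on chromosome 14 and 8.54 on chromosome 13 with a median of 6.80. Without these 4 chromosomes, 3919 of 33791 windows (11.6%) were far intergenic, the ratio to sequence was 0.399 and the density 6.71 per Mb.

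The peak names carry running numbers that follow position along each chromosome (0 neighbours out of order), so peaks that were called but left out of the list can be counted between kept neighbours. In far intergenic stretches of the 16 chromosomes, 2332 of 9043 numbers were kept, or 25.8% (24.9 to 26.7%), against 52.5% in intergenic stretches 10 to 50 kb from a start site, 47.2% in introns and 91.9% at promoters. On chromosomes 7, 8, 9 and X the far share was 48.8% (47.1 to 50.5%). Over all numbers of a chromosome, the median kept share was 24.5% on the 16 chromosomes and 48.4% on chromosomes 7, 8, 9 and X, close to the far shares. Between neighbouring far windows there were 51.8 numbers per Mb on chromosomes 7, 8, 9 and X and 49.4 on the others. These values cover only spans between kept windows, so they do not give the density of called peaks over all far sequence. Only stretches with at least 2 windows enter the kept share of a class, which can raise it, most of all in short stretches. Every class stood above the medians over all numbers, so how far the classes truly differ cannot be told from these shares. In far stretches with 10 or more windows the kept share was 25.5% (23.1 to 28.0%) on the 16 chromosomes, a check added after the data had been seen. Whether the list holds the lowest q values of the whole genome or was put together in parts was not tested.

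**Figure D1:**
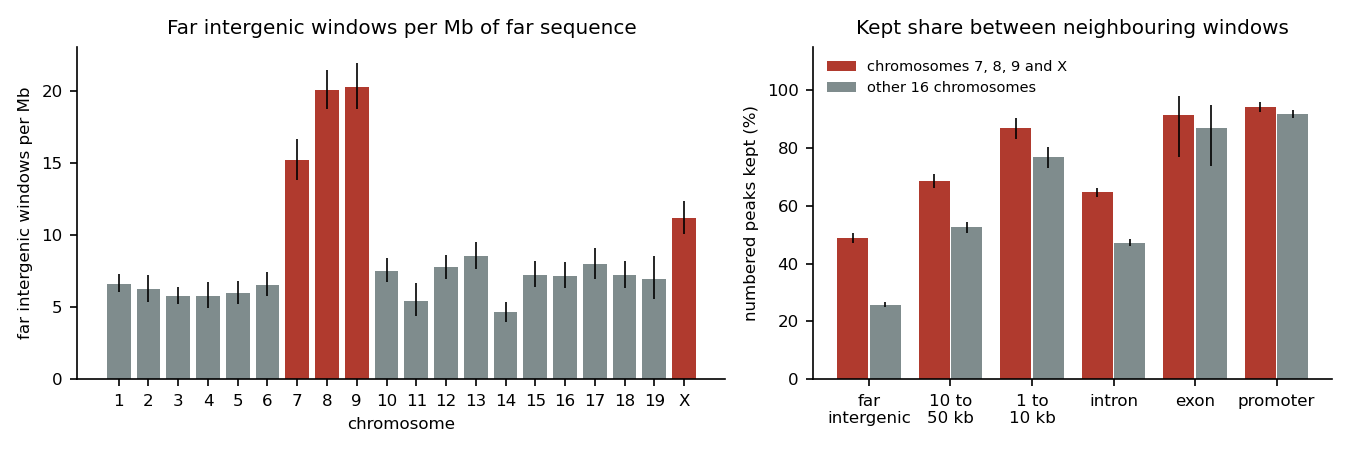
Left, far intergenic windows per Mb of far intergenic sequence on each chromosome (bars, with exact Poisson 95% intervals), with chromosomes 7, 8, 9 and X in red. Right, percent of numbered peaks kept between neighbouring windows of one uninterrupted stretch, by class of position (bars, with exact binomial 95% intervals). Chromosomes 7, 8 and 9 stand at 15.2 to 20.3 windows per Mb and X at 11.2, above all others. On the right, the far intergenic bar is the lowest of the 6 classes on both sets of chromosomes. Only stretches with at least 2 windows enter these bars, which can raise them, most of all in short stretches.

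Within chromosome 7 the kept share changed in steps, placed after the data had been seen. It was 50.8% of 5672 numbers up to about 100 Mb, 24.7% of 3753 numbers from there to 146.4 Mb, and 56.4% of 697 numbers beyond. The far intergenic density was 17.0 per Mb before the first step (15.2 to 18.9) and 9.07 per Mb between the steps (7.26 to 11.2). The share with an AP-1 word was 11.1% (36 windows) and 10.3% (9 windows) in these stretches. The numbering runs in the text order of chromosome names, in which 7, 8, 9 and X come last. What set these stretches apart was not tested.

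Among the far intergenic windows, density fell with distance from genes. The median distance from a start site was 107403 bp (quartiles 71470 and 185161.5 bp, farthest 1024230 bp). There were 11.1 windows per Mb at 50 to 100 kb (2863 windows), 8.39 at 100 to 200 kb (1949), 6.44 at 200 to 500 kb (1208) and 4.45 beyond 500 kb (the remainder), and the Poisson intervals of these bands did not overlap. Without chromosomes 7, 8, 9 and X the densities were 8.92, 6.46, 4.87 and 3.74 per Mb, in the same order. The windows nearest to the limit lay at 50006 bp, near Galnt7, on the inside and at 49992 bp, near Azin1, on the outside. Of the far windows, 52.9% (51.7 to 54.2%) lay upstream of the nearest start site and the rest downstream of it. That start site belonged to a protein-coding gene for 3334 windows, to a pseudogene for 630, to an snRNA for 616 and to a snoRNA for 520.

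The share of windows with an AP-1 word fell along the same bands. It was 16.0% (14.7 to 17.4%) at 50 to 100 kb, 13.4% (12.0 to 15.0%) at 100 to 200 kb, 9.69% (8.08 to 11.5%) at 200 to 500 kb and 6.01% (3.04 to 10.5%) beyond, where 11 windows held it. The CTCF word was found in 34 of 2863 windows at 50 to 100 kb (1.19%, 0.824 to 1.66%), in 4 of 1949 at 100 to 200 kb (0.205%, 0.0560 to 0.525%) and in 3 windows farther out. The RUNX word showed no such order beyond counting error, at 12.7%, 12.0%, 11.3% and 11.5%. Median GC content also fell over the bands, with 47.2%, 46.4%, 45.4% and 44.6%, and a comparison at equal GC is given with the words.

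**Figure D2:**
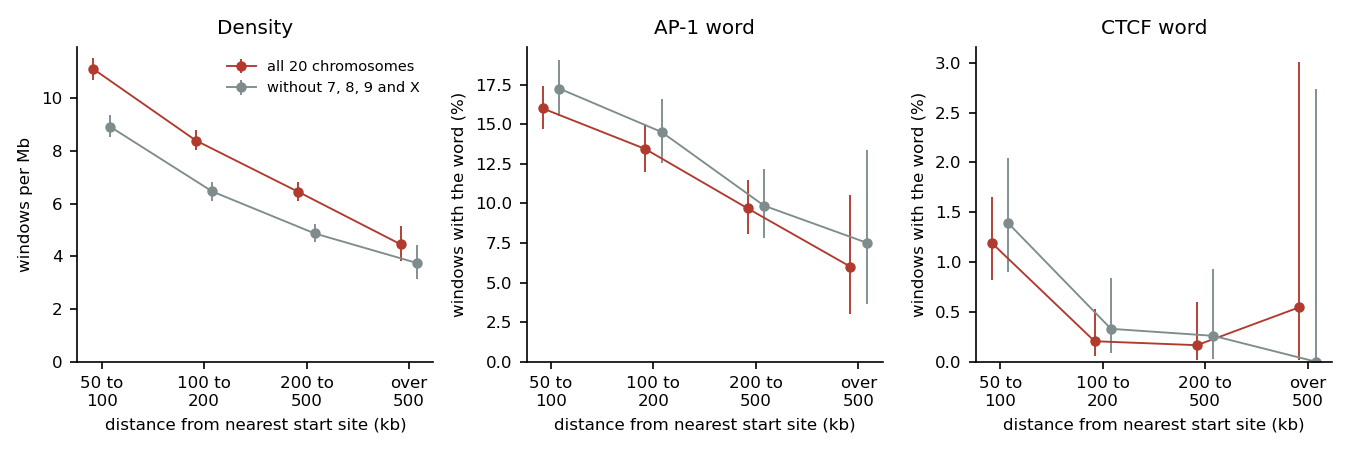
Windows per Mb (left), percent of windows with an AP-1 word (centre) and percent with a CTCF word (right) by distance from the nearest start site, for all 20 chromosomes (red) and without 7, 8, 9 and X (grey), with 95% intervals. Density and the AP-1 share fall from band to band, and the CTCF share drops between 50 to 100 kb (1.19%) and 100 to 200 kb (0.205%).

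In base composition the far intergenic windows stood between the sequence around them and the windows near genes. Their median GC content was 46.6% (quartiles 43.4 and 49.8%), against 39.4% in the 1425253 tiles of 500 bp that cover far intergenic sequence outside windows, 48.2% in windows 10 to 50 kb from a start site and 59.6% in promoter windows. The median CpG count was 4 per window, against 5 at 10 to 50 kb and 31 at promoters, and 3.64% of far windows held 15 or more. The central 36 bases occurred more than once in the genome in 8.16% of far windows (7.49 to 8.87%), against 17.5% in 14263 evenly spaced far tiles, 6.62% at 10 to 50 kb and 1.48% at promoters. More than a single summit in the same peak was named in 0.371% of far windows, against 1.09% at 10 to 50 kb and 11.5% at promoters.

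Of the words searched, AP-1 was the one found in excess on every chromosome. It was present in 848 of 6203 far windows, or 13.7% (12.8 to 14.5%), and in 7.63% of far intergenic tiles outside windows once the tiles were weighted to the same GC content, a log2 ratio of 0.84 ± 0.050 (jackknife SE over 20 chromosomes) that was above 0 on 20 of 20 chromosomes. Without chromosomes 7, 8, 9 and X the share was 14.6% and the log2 ratio 0.95. On X the share was lowest, at 8.17%, and on chromosome 16 highest, at 19.3%. The CTCF word, a longer word and rarer, had a larger ratio (log2 1.53 ± 0.26, 17 of 20 chromosomes), from 41 windows (0.661%) against 0.229% of tiles, and it was 1.78 without chromosomes 7, 8, 9 and X. Words of PU.1 (GAGGAAGT, 4.85% of windows against 3.46% of tiles, log2 0.49 ± 0.076) and RUNX (12.2% against 9.40%, log2 0.38 ± 0.041) followed among the words found in at least 25 far windows, and the RUNX ratio was 0.22 without GC weighting and 0.14 against sequence 10 kb to either side. The E-box CAGCTG, a site of many bHLH factors, stood in 26.3% of windows against 22.4% of tiles (log2 0.23 ± 0.032, and 0.91 without GC weighting).

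Of the 28 words searched, 11 had a share whose interval lay above that of the GC-weighted tiles, 4 lay below it and the intervals of 13 held it. Besides the words already named, those above were TFAP2 (GCCNNNGGC), HIF (TACGTG), the E-box CACGTG, KLF (CCCGCCC), FOX (TGTTTAC) and the NFI palindrome, which was found in 6 windows at a log2 ratio of 1.61 ± 0.64. The words below were those of POU (ATGCAAAT, 2.82% of windows against 3.68% of tiles), SOX (ACAATGG, 7.24% against 8.76%), IRF (2.47% against 3.16%) and GRHL (AACCGGTT, 5 windows). The GATA word (AGATAAG) was in 5.98% of windows and 6.39% of tiles, within the interval. The words of HIF, the E-box CACGTG and KLF hold CpG, and tiles were weighted by GC but not by CpG. Far windows had a mean of 5.4 CpG and far tiles 3.1, and the part of this in the ratios of these words was not tested. The FOX ratio changed sign, to log2 -0.10, when the tiles were not weighted by GC and, to -0.044, when sequence 10 kb to either side was used in place of tiles, so no direction is given for it. The intervals of NFI (4 windows) and GRHL (4 windows) held the share of tiles once chromosomes 7, 8, 9 and X were left out. In the windows beyond 100 kb alone, those of HIF (4.07% of windows against 3.54% of tiles), the E-box CACGTG (5.24% against 4.77%), KLF (3.35% against 3.01%), CTCF (0.210% against 0.184%), FOX, NFI and GRHL held it, and at 50 to 100 kb those of IRF, NFI and GRHL did.

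**Figure D3:**
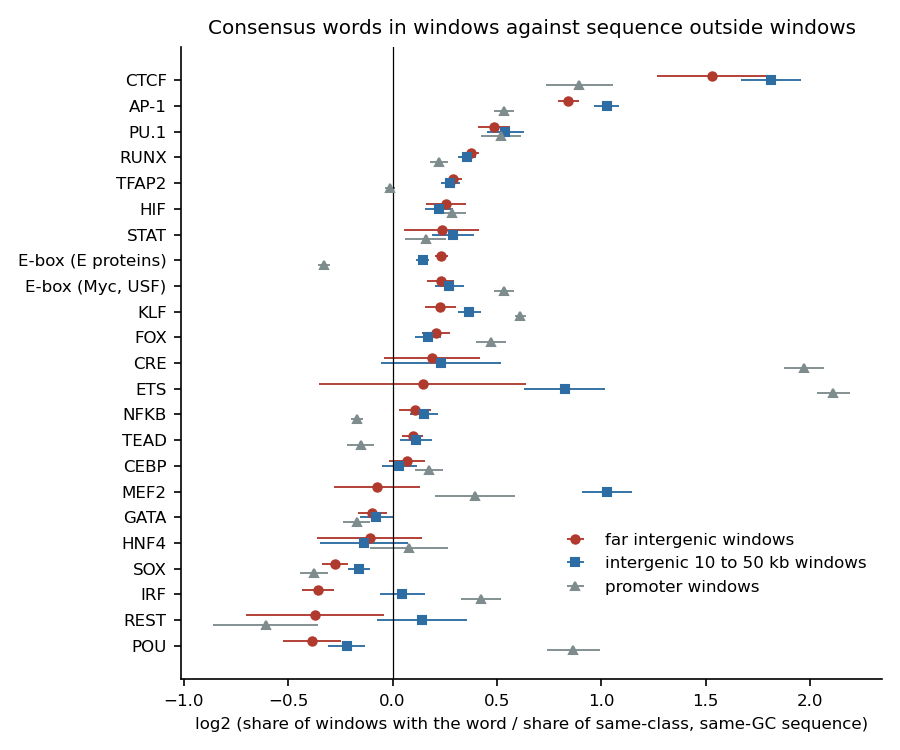
Log2 of the share of windows with each consensus word over the share of GC-weighted tiles of the same class outside windows, for far intergenic windows (red circles), windows 10 to 50 kb from a start site (blue squares) and promoter windows (grey triangles), with jackknife SE over 20 chromosomes, for the words found in at least 25 far windows (E-box of E proteins is CAGCTG, of Myc and USF CACGTG). CTCF (1.53) and AP-1 (0.84) lie farthest to the right among the far intergenic values, and POU (-0.38) lies farthest to the left.

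At equal GC the AP-1 word was still less enriched at greater distance. Against tiles of their own distance, the log2 ratio was 0.68 ± 0.070 in windows over 100 kb from a start site and 0.98 ± 0.063 in those at 50 to 100 kb, a split added after the data had been seen. For CTCF it was 0.19 ± 0.54 over 100 kb (7 windows of 3340) and 2.04 ± 0.29 at 50 to 100 kb. For RUNX it was 0.34 ± 0.062 and 0.40 ± 0.070, and for PU.1 0.41 ± 0.16 and 0.56 ± 0.12, so these differed by less than their errors.

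Compared with windows nearer to genes outside promoters, far intergenic windows held the AP-1 word less often. The differences given here are of raw shares, neither weighted to GC content nor set against the sequence of each class. The difference was -3.22 percentage points to the windows at 10 to 50 kb (13.7% against 16.9%, Newcombe interval -4.43 to -1.996), -2.13 to those at 1 to 10 kb (-3.51 to -0.763) and -2.45 to introns (-3.45 to -1.42). To promoters it was 5.90 points in the other direction (13.7% against 7.78%, 4.94 to 6.88). The same signs were found without chromosomes 7, 8, 9 and X, with -3.73 points to the windows at 10 to 50 kb. Against GC-weighted tiles of each class, the AP-1 log2 ratio was 0.84 in far windows (counting interval 0.75 to 0.93). It was 1.03 at 10 to 50 kb (0.95 to 1.10), 0.92 at 1 to 10 kb (0.82 to 1.02) and 0.93 in introns (0.88 to 0.98). Only the interval at 10 to 50 kb did not overlap that of far windows. The CTCF word differed by -0.863 points (0.661% against 1.52%, -1.22 to -0.514) from the windows at 10 to 50 kb. The GC-weighted tiles also differed, at 0.229% and 0.434%. The CTCF log2 ratios to these tiles, 1.53 (1.05 to 1.97) and 1.81 (1.53 to 2.08), had overlapping intervals. For RUNX the difference was -0.875 points to the windows at 10 to 50 kb (-1.998 to 0.254), -1.76 to those at 1 to 10 kb (-3.08 to -0.464) and -1.49 to introns (-2.44 to -0.509), so that only the first interval held 0. The RUNX log2 ratio to GC-weighted tiles was not lower in far windows (0.375) than at 10 to 50 kb (0.357), at 1 to 10 kb (0.369) or in introns (0.333). For PU.1 the difference to the windows at 10 to 50 kb was -0.550 points (-1.30 to 0.202), and without chromosomes 7, 8, 9 and X it was -1.17 points (-2.12 to -0.219). The ETS word of promoters (CCGGAAGT) was in 0.403% of far windows, against 7.16% of promoter windows, and the CRE word (TGACGTCA) in 0.4998%, against 3.39%.

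AP-1 words were denser toward the middle of far windows. There were 0.384 words per kb in the central 100 bp and 0.261 per kb in the outer 200 bp, a ratio of 1.47 (1.24 to 1.74). In windows 10 to 50 kb from a start site this ratio was 1.92 (1.66 to 2.21), and the intervals overlapped. With a central 200 bp the ratios were 1.39 in far windows (1.20 to 1.60) and 1.92 at 10 to 50 kb (1.70 to 2.17), and the intervals did not overlap. The E-box CAGCTG (1.34, 1.20 to 1.51) and the KLF word (1.53, 1.13 to 2.06) were also denser in the middle, while the GATA word was sparser there (0.594, 0.440 to 0.801). The RUNX ratio was 1.15 (0.964 to 1.38), and that of CTCF, 2.42, rested on 9 central words (0.9002 to 6.49), while with a central 200 bp it was 3.22 from 24 words (1.39 to 7.48). In all, the interval lay above 1 for 7 of 25 words with a ratio and below 1 for 2. Far windows had 49.2% GC in the central 100 bp and 44.7% in the outer 200 bp, and the part of this slope in the ratios was not tested.

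**Figure D4:**
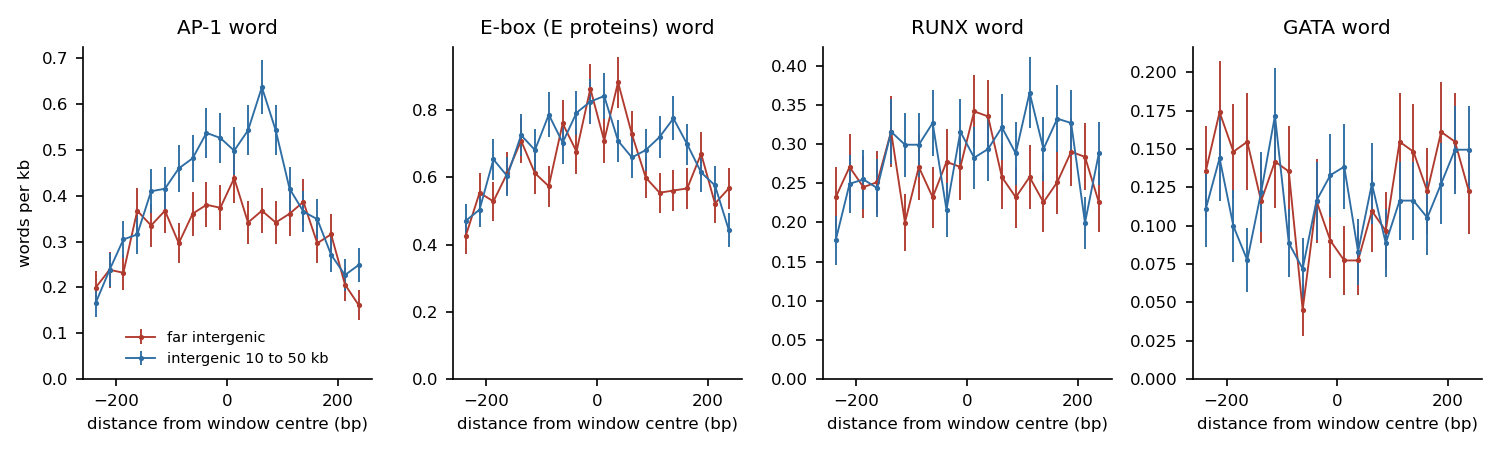
Words per kb in bins of 25 bp by distance from the window centre for the words of AP-1, the E-box of E proteins (CAGCTG), RUNX and GATA, in far intergenic windows (red) and windows 10 to 50 kb from a start site (blue), with the Poisson SE. The AP-1 word is denser in the middle than at the edges in both classes, higher in the windows at 10 to 50 kb (0.526 per kb in the central 100 bp) than in far windows (0.384), and the GATA word in far windows dips there. A word must lie whole in the window to be counted, which lowers the outermost bins, and these are not corrected for it.

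A single AP-1 word was the usual case, with 726 far windows holding 1, while 14.4% of windows with the word held it more than once, 1 of them 7 times. Windows with the word lay closer to genes (median 92549.5 bp) than windows without it (109525 bp), and their median GC was 47.6%, against 46.4%. RUNX words were more frequent in windows with an AP-1 word than in windows without (15.7% against 11.6%, a difference of 4.05 points, 1.59 to 6.78), as was the E-box CAGCTG (31.8% against 25.5%, 6.37 points, 3.10 to 9.78). The intervals of TFAP2 (3.13 points, 0.816 to 5.73), TEAD (2.18 points, 0.111 to 4.57) and NRF1 (2 windows on each side) also lay above 0. That of REST lay below 0 (-0.598 points, -0.842 to -0.114), and those of all other words held 0. PU.1 words were in 6.13% of windows with an AP-1 word and 4.65% of those without (1.48 points, -0.0632 to 3.38). Far windows whose central 36 bases occurred more than once in the genome held the AP-1 word in 5.34% of 506 cases (3.55 to 7.67%), against 14.4% of 5697 windows with a central sequence found once (13.5 to 15.3%).

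All 7-letter words were then counted in the same way, after the consensus words had been seen, to learn whether the chosen words were among the leading ones. Of the 5432 words without CpG that were present in at least 1% of tiles, 93 had a log2 ratio of 0.3 or more in far windows, or 1.71%. TGACTCA, the AP-1 word, came first with 0.84, apart from the second word, GTGTGTA, with 0.52. Several of the next were pieces of the AP-1 word with a neighbouring base, such as GACTCAC (0.49), ATGAGTC (0.47) and ATGACTC (0.44), and others were pieces of CA repeats, such as CACACAC (0.47, 24.3% of windows against 17.5% of tiles). AACCACA, the RUNX word, ranked 24, and the lowest of the 5432 words was ATGGACC (-0.72). Over all 8192 words TGACTCA ranked 50, behind words that held CpG or were present in under 1% of tiles.

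Far intergenic windows had fewer close neighbours than the others, but the rule that defines them sets part of this. No promoter window, within 1 kb of a start site, can lie within 10 kb of a window over 50 kb from every start site. Another window lay within 10 kb of 31.3% of far windows (30.1 to 32.5%). The share was 43.9% for windows 10 to 50 kb from a start site and 56.0% for intronic windows. The median gap to the nearest window was 23.7 kb for far windows, against 12.4 kb and 7.91 kb. Without chromosomes 7, 8, 9 and X, 24.4% had a neighbour within 10 kb. When far windows up to 12500 bp apart were joined, 4088 stood alone (65.9%), and 903 (14.6%) fell into groups of 3 or more. Without chromosomes 7, 8, 9 and X these groups held 9.19% of far windows.

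The largest group held 34 windows over 108.2 kb (chr8:129301577-129409744), of which 10 had an AP-1 word and 3 each a RUNX and a PU.1 word. Its nearest protein-coding gene was Tomm20, which encodes a subunit of the mitochondrial import receptor. Of 41 peak numbers spanned there, 34 were kept. The next group, of 11 windows (chr8:37221236-37252446, near Lonrf1), spanned 31.2 kb with an AP-1 word in 4. Groups of 9 lay near Irf2bp2 (72.1 kb upstream), a corepressor of IRF2, near Ccnd1 (150 kb upstream), which encodes cyclin D1, and near E2f8 (85.0 kb upstream), a repressor of the cell cycle. Further groups of 9 lay near Pja1, Trpm1, Maf and Lrrc28, and 8 windows lay in 8.25 kb near Ppp1r3b, a glycogen-targeting subunit of a phosphatase. All of these were on chromosomes 7, 8 and X. On the other 16 chromosomes, a ranking added after the data had been seen, the largest groups were 8 windows near Zfp36l2, an RNA-binding protein that promotes mRNA decay (chr17:84500683-84519447, with 3 AP-1 and 3 RUNX windows), 7 near Tbl1xr1 (5 with an AP-1 word) and 6 near Snx18.

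Each base of far sequence was given to the protein-coding gene with the nearest start site. On this basis 2155 of the 4279 genes with far intergenic sequence had at least 1 far window, and 86 genes with 10 or more held 19.2% of them. Maf, a transcription factor of the AP-1 superfamily (chr8:118206842-118231694), had 33 windows in 0.551 Mb, or 59.9 per Mb, against 20.1 over all far sequence of chromosome 8, with 8 AP-1 windows. Tomm20, on the same chromosome, had 34 in 0.125 Mb (271.2 per Mb). Cdh5, the cadherin of endothelial cells, had 24 in 0.568 Mb, all upstream, and Cadm1, an adhesion molecule of the immunoglobulin family, had 24 in 0.762 Mb. The others of the 10 with most windows were 4930555F03Rik (22), Sall3 (22), Efnb2 (21), a ligand of Eph receptors, Arglu1 (20), Ets1 (19) and Phxr4 (18). Only Sall3, a zinc finger factor, lay outside chromosomes 7, 8, 9 and X, with all 22 windows upstream in 0.606 Mb (36.3 per Mb). Of the 64 numbers stepped across there, 21 were kept.

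On the 16 other chromosomes Sall3 was followed by Tbl1xr1 (18 windows), a subunit of the NCoR corepressor complex, with 6 AP-1 windows, and Pik3c3 (16), a lipid kinase of autophagy, with 0. Btg1 (14), which restrains proliferation, had 25.3 windows per Mb and Id2 (12), which blocks DNA binding by bHLH factors, 23.6 per Mb. All far sequence on these chromosomes had 6.71 per Mb, and since the genes were chosen by their counts, the values are a description. Jmjd1c (14), Rbfox1 (14), Cited2 (13), a partner of CBP and p300, and Dsel (12) had large territories, with 12.53, 12.3, 9.76 and 5.84 windows per Mb. Gm9843 had 12 windows in 0.255 Mb, of which 5 had an AP-1 word.

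**Figure D5:**
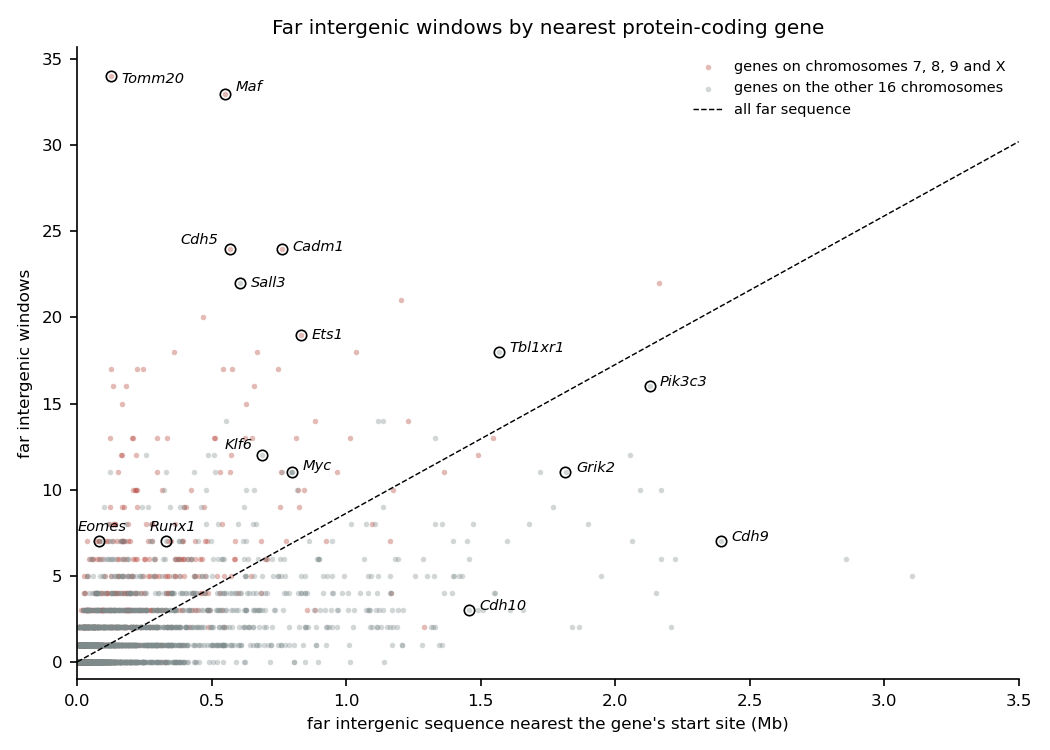
Far intergenic windows by nearest protein-coding gene (1 point per gene), against the Mb of far intergenic sequence nearest to that gene's start sites, with genes on chromosomes 7, 8, 9 and X in red and others in grey. The dashed line is the density of all far sequence (8.63 per Mb), above which Tomm20 (34 windows), Maf (33) and Sall3 (22) stand out, while Cdh9 (7) and Cdh10 (3) lie below it.

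The 8 gene lists were small in far intergenic sequence. Leukocyte genes had 13 windows in 0.490 Mb, or 26.5 per Mb (14.1 to 45.4), from 3 of the 4 listed genes with far sequence, and the median over these 4 genes was 21.2 per Mb, against 1.27 over all genes. They were Runx1 (7 windows, all upstream, up to 262.4 kb away), Runx3 (4) and the chemokine receptor gene Cxcr4 (2), all outside chromosomes 7, 8, 9 and X, where all far sequence had 6.71 per Mb. T, NK and B cell genes had 39 windows, 17.8 per Mb (12.7 to 24.4), led by Ets1 (19), an ETS factor of lymphocytes, Eomes (7 in 0.0793 Mb, all upstream), a T-box factor of cytotoxic cells, Gata3 (6) and Bcl6 (4). Without chromosomes 7, 8, 9 and X, and so without Ets1 and Eomes, their density was 10.2 per Mb (5.43 to 17.4). That interval held the 6.71 per Mb of all far sequence on the same chromosomes. The 3 myeloid genes with far sequence had 0 windows in 0.107 Mb, which allows up to 34.4 per Mb.

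AP-1 and immediate early genes had 31 windows in 2.65 Mb, 11.7 per Mb (7.96 to 16.6), all outside chromosomes 7, 8, 9 and X. This interval lay above the 6.71 per Mb of all far sequence without those chromosomes but held the 8.63 per Mb over all chromosomes. Each of the 7 listed genes with far sequence had at least 1 window, against 50.4% of all 4279 genes, which had less far sequence each (718.8 Mb in all). Klf6, an early response factor, had 12, Myc, the proto-oncogene, had 11 at 267.9 to 862 kb, 9 of them upstream, and Klf4 had 3. Luminal epithelial genes had 11 windows, 11.2 per Mb (5.57 to 20.0), an interval that held the 8.63 per Mb of all far sequence. Of these windows, 6 lay nearest to Gata3, a factor of luminal cells that is also in the T cell list. A further 2 lay nearest to Pgr, the progesterone receptor gene, and 1 nearest to Epcam. Basal and fibroblast genes had 4 windows, 3.81 per Mb (1.04 to 9.75), also all outside chromosomes 7, 8, 9 and X, and this interval held both 8.63 and 6.71 per Mb. Neuron genes had 46 windows in the largest territory, 12.0 Mb, or 3.83 per Mb (2.80 to 5.11), below all far sequence with or without chromosomes 7, 8, 9 and X, but the value was 6.83 per Mb (4.67 to 9.64) when start sites of any gene type were used. Among them Rbfox1, a neuronal splicing factor, had 14 and Grik2, a glutamate receptor subunit, had 11, while the cadherin genes Cdh9 and Cdh10 had 7 in 2.39 Mb and 3 in 1.46 Mb, and Nrxn3, a synaptic adhesion gene, had 4 in 0.202 Mb. Liver and muscle genes had 3 windows, all nearest to Apob, which encodes a lipoprotein of liver and gut. Their density was 11.7 per Mb (2.42 to 34.3), again with 8.63 per Mb inside the interval. Nearness does not show which gene a window acts on.

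The 5 windows farthest from a start site lay 934 to 1024 kb away. A set of 3 lay nearest to Olfm4, at 1360.0 to 1445 kb, 1 upstream of Pik3c3 at 1020.1 kb and 1 downstream of Sis at 1162.5 kb. Their GC content was 40.4 to 45.4%, 3 held a RUNX word and none an AP-1 word, and their central 36 bases each occurred once in the genome.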

How the data were processed

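What the authors deposited is 1 list of window positions for all wells, a unit of its own kind (other), with no score or count. Per the labels and methods, the authors aligned the trimmed reads to mm9 (Bowtie2 2.1.0), took out duplicates (Picard 1.79), aggregated the cells, called summits with MACS2 (version not given in the sources used here), widened each to 500 bp and, by the methods' account, kept the 50000 with the lowest q values. A weak peak can thus be called and missing from the list.

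Positions, counted from 1, were read on the NCBIM37 sequence (mm9) with GENCODE vM1. Windows were placed by their centre in the first class that applied of promoter (within 1 kb of a start site), then exon, then intron, then intergenic. The 28 consensus words were searched on both strands, and a palindrome counted once. The PU.1 and ETS words share the core GGAAGT, and the HIF and Myc E-box words share ACGTG, and neither pair can match on the same bases. Words not spelled out in the results were those of CTCF, NFKB, IRF, NFI, NR3C, ESR, NRF1 and MEF2, with several letters allowed at some positions, and CEBP (TTGCNCAA), STAT (TTCCNGGAA), TEAD (CATTCCA), HNF4 (CAAAGTCCA) and REST (TTCAGCACC). Shares were set against all tiles of 500 bp of the same class outside windows, weighted to the windows' GC in 2% bins. Shares have Clopper-Pearson intervals, densities exact Poisson intervals and differences of shares Newcombe intervals, at 95%. These cover counting error only, and no p-value was computed, since there is 1 list and no replicate. Far sequence was assigned to the protein-coding gene with the nearest start site. The symbols of 134 of the 137 listed genes were in the annotation, and 3 were found through a synonym (RefSeq, GRCm38.p6, names only).

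Named genes are the 10 with most far windows, over all chromosomes and without 7, 8, 9 and X, list members with 3 or more, genes nearest to the 10 largest groups and to the 5 farthest windows, and others where said. The windows, lists and words were chosen with earlier results of these data known. Word counts and the kept share were tested on simulated data. The simulated stretches were far longer than most in the list, so the rise of the kept share in short stretches was not tested. Python 3.11.15, numpy, scipy, pandas and matplotlib were used. Alternatives changed the chromosomes, the distance limit, the transcripts, the placement, overlapping windows, GC bins, the background, the central width, the joining distance and the nearest gene.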

Additional observations from a re-analysis of the deposited data

How the results depend on the processing

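Apart from leaving out chromosomes, 100 alternative values were computed over 24 results, of which 68 stayed within the counting interval of the main value, 30 moved outside it and 2 changed sign. Both of those were the FOX word, at log2 -0.10 without GC weighting and -0.044 against sequence 10 kb to either side.

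Without chromosomes 7, 8, 9 and X, the far intergenic share was 11.6%, its ratio to sequence 0.399, the kept share 25.8% (32.3% over all 20 chromosomes), the AP-1 log2 ratio 0.95 and the share in groups of 3 or more 9.19%. With a limit of 100 kb, the share was 6.68%, the ratio 0.370, the kept share 30.6%, the AP-1 log2 ratio 0.68 and the CTCF log2 ratio 0.19, with a counting interval that held 0. With transcripts of protein-coding genes only, 18.1% of windows were far intergenic at a ratio of 0.468. When overlapping windows counted once, the share was 12.7%. Without GC weighting, the log2 ratios were 0.94 for AP-1 and 2.41 for CTCF. Those of the E-box CAGCTG (0.91), PU.1 (0.74), RUNX (0.22), POU (-0.93), IRF (-0.78) and GATA (-0.38) also moved outside their intervals. Against sequence 10 kb to either side, those of the E-box CAGCTG (0.59), RUNX (0.14), POU (-0.63), IRF (-0.68) and GATA (-0.33) moved. In far stretches with 10 or more windows, chosen after seeing the data, the kept share was 40.3% over all chromosomes. Joining at 5 kb and 25 kb put 6.50% and 25.5% of far windows in groups of 3 or more. Counting the nearest start site of any gene type, the neuron list stood at 0.791 times the density of all far sequence, against 0.444 in the main comparison. Leaving out each chromosome in turn gave a far share of 11.9% to 12.9%, an AP-1 log2 ratio of 0.82 to 0.87 and a CTCF log2 ratio of 1.41 to 1.67. The genome was not masked for repeats, so the alternative that leaves out repeats was not run. No paired analysis was possible because all wells form 1 group.

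Depth per window is unknown, so whether a region without a window was closed or shallowly covered cannot be told apart. Low-quality alignments were removed by the authors, and far tiles had a repeated central sequence more often (17.5%) than far windows (8.16%). The densities are per sequenced base and were not corrected for this.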

Other observations

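Of 4181 uninterrupted far intergenic stretches, 2121 held a window, and of the 78 with more than 1 Mb of sequence 75 did. The 3 long ones without any were 1.47 Mb between Lcorl and Slit2 on chromosome 5, 1.18 Mb on chromosome 19 next to Sorcs3 and 1.07 Mb between Csmd3 and Trps1 on chromosome 15. The longest stretch, 2.28 Mb between Olfm4 and Pcdh17 on chromosome 14, held 6 windows, of which 1 had an AP-1 word. On chromosome 7 beyond 146.4 Mb, 30 far windows lay in 0.321 Mb, or 93.5 per Mb (63.1 to 133.4), and 9 of them had an AP-1 word, with the group near Ccnd1 among them. This stretch has the high kept share described for most of chromosome 7, and its part in the density was not tested.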
